A study of Mus musculus with 6 samples.

Results

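The FOG cofactor genes Zfpm2 and Zfpm1, the GATA factor genes Gata4, Gata5 and Gata6 and the COUP-TF receptor genes Nr2f1 and Nr2f2 were followed through every probe set that the platform annotation assigns to one of them alone. For these 7 genes that gave 18 probe sets out of 45101 on the array: 2 for Zfpm2, 2 for Zfpm1, 2 for Gata4, 2 for Gata5, 3 for Gata6, 1 for Nr2f1 and 6 for Nr2f2. A probe set is a group of short probes whose signals are combined into 1 value, and each value below is a log2 signal. Probes differ in brightness, so signals of different probe sets do not rank transcript levels. Each was compared with itself across hearts, and a contrast between 2 probe sets of a gene was compared only between hearts; "brighter" and "dimmer" refer to signal alone.

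FOG proteins (encoded by Zfpm1 and Zfpm2) are zinc finger cofactors that do not bind DNA as sequence-specific factors do but attach to the N-terminal zinc finger of GATA transcription factors, and either raise or lower the output of GATA sites depending on the promoter. Zfpm2 (FOG2) is the FOG gene typical of the heart, where its protein pairs with GATA4, while Zfpm1 (FOG1) is best known as the partner of GATA1 in red cell and megakaryocyte development. GATA4, GATA5 and GATA6 are the GATA factors of heart and endoderm, and the COUP-TF nuclear receptors Nr2f1 and Nr2f2 can also bind FOG2, with Nr2f2 known for atrial and venous identity.

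RNA came from the heart apex of male mice aged 6 to 7 weeks, with 1 heart and 1 Affymetrix array per sample. Of the 6 animals, 3 were Fog2flox/delta with alpha MHC Cre (αMHC-Cre, a transgene in which the Myh6 promoter drives Cre recombinase in cardiomyocytes). The other 3 were Fog2flox/delta with no Cre, so every animal already had 1 deleted Fog2 allele and no group was wild type. In the hearts with Cre, recombination of the remaining floxed allele is possible in cardiomyocytes, whereas other cell types of the apex would keep it. No group had Cre without the floxed allele, so Cre itself and the loss of Fog2 cannot be told apart. The titles call the hearts biological replicates, and they are named aMHC_Cre 1 to 3 and no_Cre 1 to 3 below, in the order in which values are given.

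The arrays had medians between 5.72 and 5.81 and maxima between 13.97 and 14.00, and no further normalization was applied. Tissue identity was checked with 11 genes listed as ventricular myocyte markers, several of which all cardiomyocytes express. Their mean log2 signal per heart was 12.46 to 12.52 with Cre and 12.38 to 12.42 without. These values do not bound the share of other cells. The means of 6 atrial markers lay further apart (9.68 to 10.27 with Cre and 8.18 to 8.42 without). Myl7 makes most of that gap, as the mean of the other 5, Nppa among them, was 9.44 to 10.04 with Cre and 9.14 to 9.24 without. Of the 27022 probe sets with a mean above the dimmest 40%, 1412 differed between the groups (limma, Benjamini-Hochberg adjusted p under 0.05), which is 5.23%. This background share is 3.43% for probe sets higher with Cre and 1.79% for those lower with Cre.

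Of the 18 probe sets, 14 passed this filter on dim probe sets, and the other 4 (1 of Gata5 and 3 of Nr2f2) did not. Among the 14, 2 rose with Cre (1 each of Zfpm2 and Zfpm1) and 1 fell (the other of Zfpm2), which is 21.4% against the background of 5.23%. As Zfpm2 is the targeted gene and the members were chosen with earlier results known, this share describes the members and tests nothing. All 3 called probe sets belong to the FOG genes. None of the 10 tested probe sets of the GATA and COUP-TF genes passed in the limma fit (0 had an unadjusted p under 0.05). The 3 hearts of one group lay entirely above or below the 3 of the other for 4 of the 14 (28.6%), against 23.5% of all tested probe sets.

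**Figure D1:**
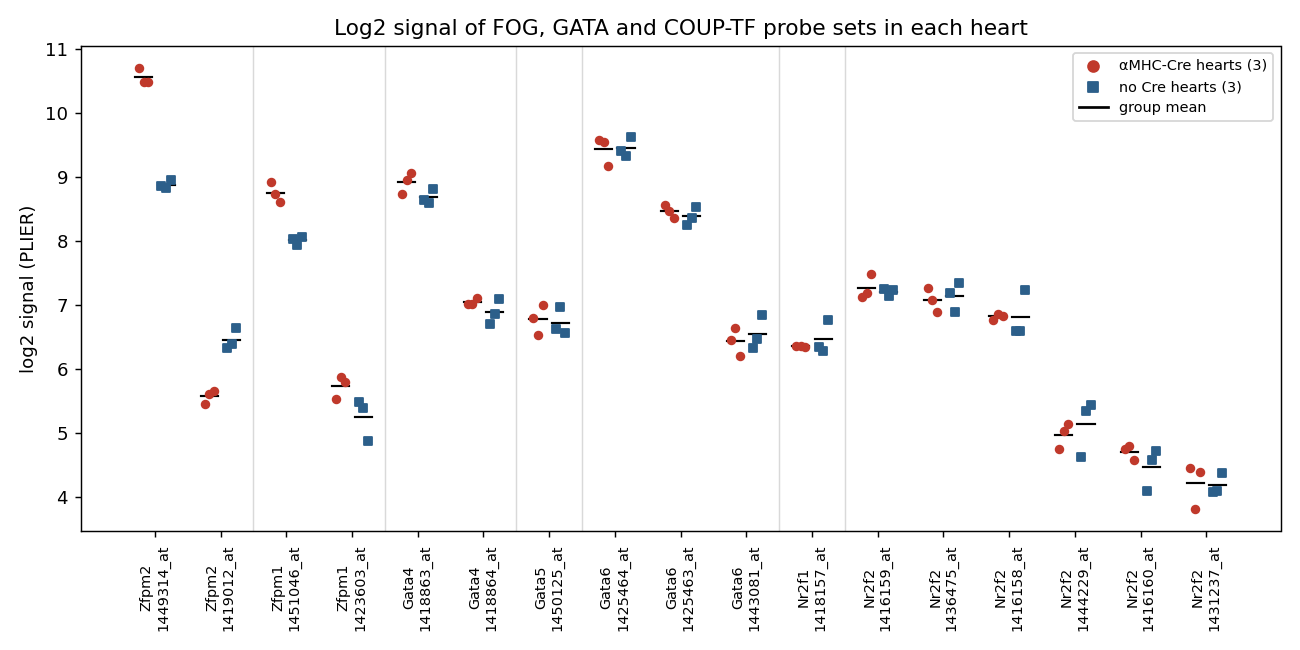
Log2 signal (vertical axis) in each heart for the probe sets of the 7 genes, grouped by gene along the horizontal axis; red circles are the 3 hearts with αMHC-Cre, blue squares the 3 without Cre, and black lines the group means. The groups stand apart for both Zfpm2 probe sets, in opposite directions, and for both Zfpm1 probe sets, and they overlap for every other one shown. Gata5 1450126_at, with values down to -8.83, is not drawn.

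The targeted gene, Zfpm2 on chromosome 15, was read by 2 probe sets designed from the same transcript record. Probe set 1449314_at had log2 signals of 10.71, 10.48 and 10.50 in the hearts with Cre, against 8.86, 8.83 and 8.95 in those without. Every heart with Cre was above every heart without it, and no 2 hearts of the same group differed by more than a small part of the gap. The group means were 10.56 ± 0.13 and 8.88 ± 0.07 (SD, n = 3 each). This is a rise of 1.68 ± 0.12 (SE) on the log2 scale, or 3.20-fold with a 95% interval of 2.66 to 3.86 (limma adjusted p = 0.00014). Only 120 of the 27022 tested probe sets, itself among them, had a positive difference of that size or more.

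Probe set 1419012_at of Zfpm2 had log2 signals of 5.46, 5.61 and 5.65 with Cre, against 6.34, 6.40 and 6.65 without Cre. Here every heart with Cre was below every heart without it. The means were 5.58 ± 0.10 and 6.46 ± 0.16 (SD, n = 3 each), and the signal fell by 0.88 ± 0.13 (SE) on the log2 scale. With Cre the signal was thus 0.54-fold that without it (95% interval 0.44 to 0.66), a decrease of 45.8% (limma adjusted p = 0.0052). Just 177 tested probe sets, this one included, had a negative difference as large.

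The probe set that fell is the dimmer of the 2 for Zfpm2. Its mean of 6.02 over all hearts was at percentile 54.22 of all probe sets except controls. The size of its difference depends on how low signals are treated. With 64 added to the unlogged signal of every probe set, it differed by -0.45 and still passed (limma adjusted p = 0.0086). With no filter on dim probe sets its adjusted p was 0.068, so the call was lost, while that of 1449314_at held at 0.014. Over the 14 alternatives that kept 1419012_at, its adjusted p lay between 0.0030 and 0.068. The position of each probe set in the transcript was not used here, and neither direction by itself checks the recombination of the floxed allele.

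Because both probe sets were read on the same array, their contrast can be taken within each heart, which removes any difference in overall signal between arrays. The log2 signal of 1449314_at minus that of 1419012_at was 5.25, 4.87 and 4.84 in hearts with Cre, against 2.53, 2.43 and 2.31 in hearts without Cre. The contrast was larger in every heart with Cre than in any without. It averaged 4.99 ± 0.22 with Cre and 2.42 ± 0.11 without (SD, n = 3 each), a change of 2.57. As both probe sets had already separated the groups, in opposite directions, the separation of their contrast follows from those values and is not further evidence, and no p is given.

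**Figure D2:**
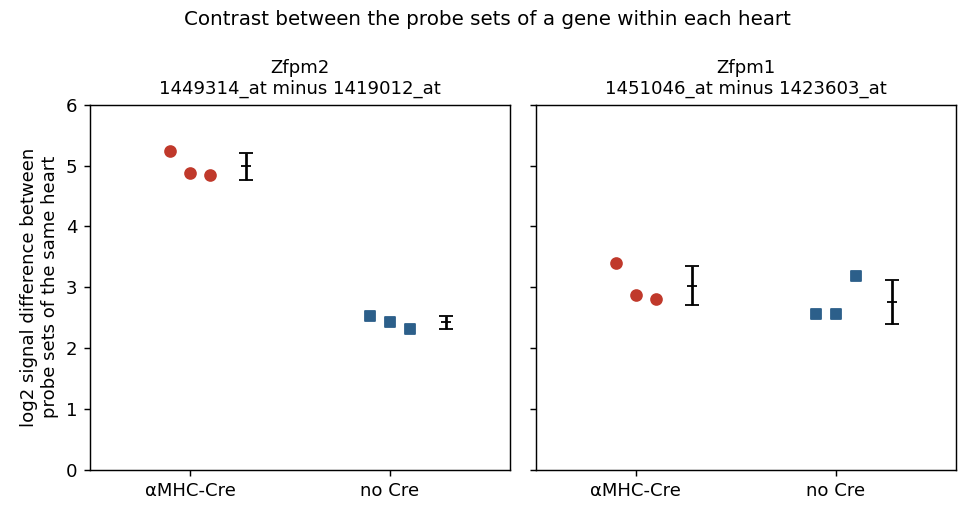
Difference in log2 signal between the brighter and the dimmer probe set of the same gene within each heart (vertical axis), for Zfpm2 on the left and Zfpm1 on the right; points are hearts, and bars beside them show the mean ± SD of 3 hearts. For Zfpm2 the hearts with αMHC-Cre sit between 4.84 and 5.25 and those without Cre between 2.31 and 2.53, whereas for Zfpm1 the groups overlap.

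Zfpm1, the other FOG gene, lies on chromosome 8 and also has 2 probe sets. Probe set 1451046_at read 8.93, 8.74 and 8.61 with Cre, against 8.04, 7.94 and 8.06 without Cre. All hearts with Cre were higher than all hearts without. The means were 8.76 ± 0.16 and 8.01 ± 0.06 (SD, n = 3 each), and the signal rose by 0.75 ± 0.12 (SE) on the log2 scale, which is 1.68-fold with a 95% interval of 1.38 to 2.04 (limma adjusted p = 0.010). The call was lost without heart aMHC_Cre 2 (adjusted p = 0.051) and with no filter on dim probe sets (0.087).

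The dimmer Zfpm1 probe set, 1423603_at, read 5.53, 5.88 and 5.80 with Cre, against 5.49, 5.39 and 4.88 without Cre. The groups again did not overlap, but the lowest heart with Cre was barely above the highest without. Its difference was 0.49 ± 0.18 (SE, limma adjusted p = 0.18), and it passed in 0 of 14 alternatives. The contrast between the 2 Zfpm1 probe sets within a heart averaged 3.02 ± 0.32 with Cre and 2.76 ± 0.36 without (SD, n = 3 each; two-sided exact permutation p = 0.5).

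RefSeq promoter windows, which run from 250 bases before to 50 after the start of a gene in build GRCm38.p6, were matched for 4 of the 7 genes. Those of Zfpm1, of which 1 of the 2 probe sets rose, and Nr2f2, whose signals did not pass the test, are shown so that a reader can see the letters around both starts. Capitals mark the GC box word GGGCGG (read on either strand) in the window of Zfpm1, at chr8:122281891-122282190 on the plus strand, and a GATA word in that of Nr2f2, at chr7:70366697-70366996 on the minus strand.
Zfpm1: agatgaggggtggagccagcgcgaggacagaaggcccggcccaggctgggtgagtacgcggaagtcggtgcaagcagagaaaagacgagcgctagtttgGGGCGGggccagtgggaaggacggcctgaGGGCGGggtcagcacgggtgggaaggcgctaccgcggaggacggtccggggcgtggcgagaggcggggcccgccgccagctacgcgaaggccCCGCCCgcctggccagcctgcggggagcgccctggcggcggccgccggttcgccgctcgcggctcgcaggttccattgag
Nr2f2: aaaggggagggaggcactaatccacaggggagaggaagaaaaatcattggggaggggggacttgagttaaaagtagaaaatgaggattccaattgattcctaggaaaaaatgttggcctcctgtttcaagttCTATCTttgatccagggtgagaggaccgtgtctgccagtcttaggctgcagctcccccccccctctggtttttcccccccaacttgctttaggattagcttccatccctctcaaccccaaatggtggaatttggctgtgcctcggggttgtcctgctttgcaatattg

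On both strands of these windows, 4 GATA words were searched. They are AGATAA and its variant AGATAG, as well as TGATAA with its variant TGATAG, and no pair of them can occupy the same 6 bases of a strand. The window of Nr2f2 held 1 match (AGATAG, on the opposite strand, starting 118 bases before the gene), and that of Zfpm1 held 0. A GATA word occurs in 29.8% of all 32851 promoter windows, so 1 match in a window is common. The word AGGTCA, which COUP-TFs bind in repeats and which was searched alone, found in 16.3% of windows, was in neither. The GC box occurred 3 times in the window of Zfpm1 and 0 times in that of Nr2f2, against at least 1 match in 35.7% of all windows.

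Gata4, on chromosome 14, encodes the main GATA partner of FOG2 in the heart. Its probe set 1418863_at read 8.73, 8.96 and 9.07 with Cre, against 8.64, 8.60 and 8.82 without Cre. The lowest heart with Cre lay below the highest without, so the groups overlapped. The difference was 0.23 ± 0.13 (SE, limma adjusted p = 0.42), and the 95% interval in fold terms ran from 0.95 to 1.45. The second probe set, 1418864_at, read 7.02, 7.02 and 7.12 with Cre, against 6.71, 6.86 and 7.10 without, and differed by 0.16 ± 0.13 (adjusted p = 0.61, interval 0.91 to 1.37). Both Gata4 probe sets were higher on average with Cre and neither passed the test, also in any of the 15 alternatives.

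Gata6, which overlaps with Gata4 in heart development, was read by 3 probe sets, and none passed. The brightest, 1425464_at, read 9.59, 9.55 and 9.18 with Cre, against 9.41, 9.33 and 9.63 without Cre. Both groups covered nearly the same range. Its difference was -0.02 ± 0.15 (SE, limma adjusted p = 0.97), with a 95% interval of 0.78 to 1.24 in fold terms. The other 2, 1425463_at and 1443081_at, differed by 0.08 ± 0.13 and -0.11 ± 0.17 (adjusted p 0.81 for each). The direction of 1425464_at and 1443081_at turned when heart aMHC_Cre 3 or heart no_Cre 3 was left out.

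Gata5, a GATA gene of endocardium and endoderm, had 1 probe set that could be tested. Probe set 1450125_at read 6.80, 6.54 and 7.01 with Cre, against 6.62, 6.98 and 6.57 without Cre. The groups overlapped, and the difference was 0.06 ± 0.16 (SE, limma adjusted p = 0.90, fold interval 0.81 to 1.35). The second, 1450126_at, lay among the dimmest 0.484% of all probe sets. It read 1.11, -8.83 and -8.46 with Cre, against -7.63, 2.64 and 0.51 without, so hearts of the same group lay far apart and no level can be read from it (difference -3.90 ± 3.87, SE, in the limma fit without the filter).

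The tested probe sets of the COUP-TF genes likewise did not pass the test. Nr2f1 (COUP-TFI) read 6.36, 6.36 and 6.35 in the hearts with Cre, against 6.35, 6.28 and 6.77 without Cre. The hearts with Cre were nearly identical, and the wider spread without Cre came from heart no_Cre 3. The difference was -0.11 ± 0.15 (SE, limma adjusted p = 0.78, 95% fold interval 0.74 to 1.17), and it was 0.04 without that heart.

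Nr2f2 (COUP-TFII) was read by 6 probe sets, of which 3 were bright enough to be tested. The brightest, 1416159_at, read 7.12, 7.20 and 7.49 with Cre, against 7.25, 7.14 and 7.24 without Cre. The groups overlapped, and the difference was 0.06 ± 0.13 (SE, limma adjusted p = 0.88, 95% fold interval 0.85 to 1.28). Probe sets 1436475_at and 1416158_at differed by -0.06 ± 0.16 and 0.01 ± 0.18 (adjusted p 0.90 and 0.98). In the limma fit without the filter, the 3 dim ones differed by -0.16 ± 0.26 (1444229_at), 0.24 ± 0.19 (1416160_at) and 0.03 ± 0.21 (1431237_at), and their groups overlapped as well.

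**Figure D3:**
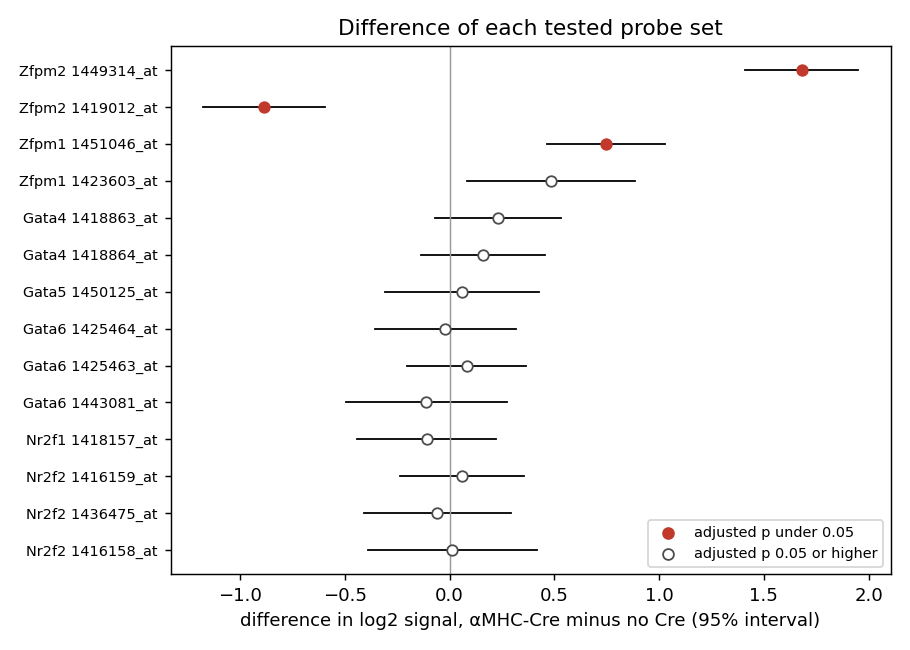
Difference in log2 signal between hearts with αMHC-Cre and hearts without Cre (horizontal axis) for the 14 tested probe sets, with 95% intervals of the limma fit; filled points passed the adjusted p threshold of 0.05. The Zfpm2 points lie at 1.68 and -0.88 and the brighter Zfpm1 point at 0.75, and every GATA and COUP-TF interval includes 0.

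The intervals bound what these 6 arrays could miss. Over the 10 tested probe sets of the GATA and COUP-TF genes, the highest upper limit was 1.45-fold (Gata4 1418863_at) and the lowest lower limit 0.71-fold (Gata6 1443081_at). Changes within these limits cannot be told from 0 here, and they do not show that the levels were equal.

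**Figure D4:**
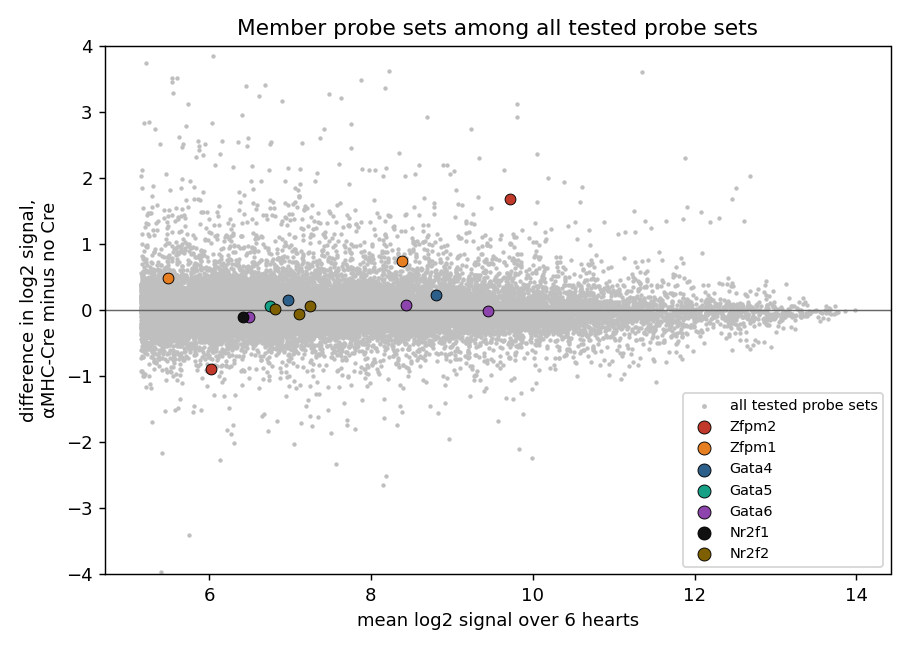
Difference in log2 signal between hearts with αMHC-Cre and hearts without Cre (vertical axis) against the mean log2 signal over the 6 hearts (horizontal axis) for all 27022 tested probe sets in grey, with the 14 of the 7 genes in colour; 10 probe sets beyond 4 in either direction are outside the axis. Zfpm2 1449314_at lies near the upper edge of the grey cloud at its signal level, and the GATA and COUP-TF points lie inside it.

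The genes whose values over the 6 hearts were most like those of each Zfpm2 probe set were listed by Pearson correlation over 6 arrays. As these fall in 2 groups of 3, the measure also rises with any difference between groups, and no p is given. For 1449314_at the 5 most alike were Col14a1 (r = 0.9997, difference 2.38), Slc51a (0.9993, 1.64), Pibf1 (0.9981, 1.42), Kif12 (0.9977, 1.38) and Pxylp1 (0.9976, 1.45), all past the threshold. For 1419012_at they were Pkig (0.9969, -0.25), Ldhd (0.9949, -0.56), Kcnk3 (0.9924, -0.80), Tm9sf2 (0.9914, -0.16) and Lgr6 (0.9913, -0.63), of which Pkig and Tm9sf2 did not pass.

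Other genes of the pathway were taken from lists, each gene through its brightest probe set, for which the background is 6.24% of 13062 genes called, 4.2% higher and 2.04% lower with Cre, and a median difference of -0.01. FOG proteins repress genes through the NuRD chromatin complex and the CtBP corepressors. Of 15 such genes tested, 2 rose and 0 fell, with a median difference of -0.05. Chd3, a helicase subunit of NuRD, averaged 8.19 ± 0.19 with Cre and 7.32 ± 0.14 without (SD, n = 3 each; difference 0.87, limma adjusted p = 0.0088). Mta1, another NuRD subunit, averaged 9.13 ± 0.14 and 8.39 ± 0.12 (difference 0.74, adjusted p = 0.011). Both calls were lost without heart aMHC_Cre 2 (adjusted p = 0.051 and 0.0501).

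Of the 4 other GATA-type genes, Gata3 was too dim to test, and none of the other 3 passed in the limma fit (0 at an unadjusted p under 0.05). Gata1, the partner of FOG1 in blood cells, differed by -0.02 ± 0.12 (SE, limma adjusted p = 0.96), and Trps1, an atypical GATA repressor, by 0.12 ± 0.15 (0.76). Among 18 tested partners of GATA4 in cardiac transcription the median was -0.05, and 5 had an unadjusted p under 0.05 in the limma fit. Past the adjusted threshold, 1 rose and 0 fell. That gene, the homeobox factor Nkx2-5, averaged 10.32 ± 0.08 with Cre and 9.74 ± 0.11 without (SD, n = 3 each; difference 0.58, adjusted p = 0.025). Its call was lost without any single heart other than no_Cre 2 (adjusted p 0.070 to 0.090).

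Of 20 tested genes with GATA4 sites named in reviews, 7 rose and 0 fell through their brightest probe sets, with a median difference of 0.10. The largest differences were 3.61 for Nppb (B-type natriuretic peptide), 2.93 for Myh7 (β-myosin heavy chain), 2.30 for Acta1 (skeletal α-actin) and 2.07 for Bcl2 (a survival factor). Through its other tested probe sets, Bcl2 differed by 0.01 to 1.79. Without heart aMHC_Cre 2, 4 of the 20 were called, among which Nppb was not (limma adjusted p = 0.058). With no filter on dim probe sets, 3 were called. Ccnd2 differed by -0.34 through its brightest probe set (limma adjusted p = 0.25), and by -0.70 to -0.44 through its other tested ones. Of these, the probe set at -0.70 passed as lower with Cre (limma adjusted p = 0.036). Among 9 receptors related to the COUP-TFs, 0 passed in the limma fit (1 at an unadjusted p under 0.05). Their median was 0.02, and Rxra, the retinoid X receptor with which many nuclear receptors pair, differed by -0.52 ± 0.14 (SE, adjusted p = 0.065), while Nr2f6 differed by 0.28 ± 0.13 (0.33). Rxra passed in 6 of 15 alternatives.

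The apex holds several cell types, and in bulk RNA fewer cells of a type and less RNA per cell cannot be told apart. Of 10 fibroblast markers 5 rose and 0 fell (median 0.54), and their mean log2 signal per heart was 10.53 to 10.75 with Cre and 9.89 to 10.02 without. Col1a1 and Col1a2, which encode type I collagen, differed by 1.41 and 1.28, Mfap5 by 1.02 and Lum by 0.74. Without heart aMHC_Cre 2, 3 of the 10 were called. These shifts move in the same direction as Zfpm2 1449314_at and Zfpm1 1451046_at. The other called probe set, Zfpm2 1419012_at, moved the opposite way, with a difference of -0.88. The part of the fibroblast marker shifts in the results of these probe sets was not tested. Of 3 tested epicardial markers, Aldh1a2 and Upk1b rose, by 1.64 and 0.63, and Tbx18 differed by 0.03 (limma adjusted p = 0.96). Wt1, Upk3b, Msln, Krt19 and Lrrn4 were too dim to test. The call of Upk1b was lost without any single heart other than no_Cre 3 (limma adjusted p 0.064 to 0.138). The means per heart of those 3 were 7.36 to 7.79 with Cre and 6.50 to 6.96 without. Whether the rise of Aldh1a2 and Upk1b had a part in the values of the Zfpm genes was not tested either.

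Blood and endothelial cells are known sites of Zfpm1 expression. Of 10 red cell, platelet and mast cell markers, 5 were tested, and no mast cell gene was among them. Gp9, Klf1 and the mast cell genes Cpa3 and Kit were too dim to test, and Hbb-bt had no probe set of its own. Of the 5 tested red cell and platelet markers, 0 passed in the limma fit (0 at an unadjusted p under 0.05, median 0.02). Their mean per heart was 7.31 to 7.52 with Cre and 7.30 to 7.42 without. Alas2, the erythroid haem enzyme, differed by 0.48 ± 0.24 (SE, limma adjusted p = 0.34) and Pf4, a platelet factor, by -0.16 ± 0.13 (0.62). Of 12 endothelial markers only Vwf rose past the threshold (1.12 ± 0.17, adjusted p = 0.0066), while 3, Vwf among them, had an unadjusted p under 0.05. The differences of 9 of the 12 were positive, with a list median of 0.12. Their means per heart were 9.29 to 9.36 with Cre and 9.04 to 9.27 without. None of 8 venous and lymphatic markers passed (2 at an unadjusted p under 0.05; median 0.21), with Ephb4 at 0.47 ± 0.15 (adjusted p = 0.12) and Flt4 at 0.31 ± 0.14 (0.28).

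Nr2f2 is known for atrial identity, so atrial markers were read as well. Of 11, 6 were bright enough to test, and Myl7 and Nppa rose with Cre, Nppa by 2.03. Myl7, an atrial myosin light chain, averaged 11.02 ± 0.36 with Cre and 3.72 ± 0.54 without (SD, n = 3 each). Its mean without Cre is below the filter mean of 5.16, so it was tested only through its signal with Cre, and the size of its difference depends on how dim signals are treated (7.30, or 4.78 with 64 added to the signal). Myl4, Kcnj3, Mybphl and Kcna5 differed by -0.02, 0.27, 0.67 and 0.09 and did not pass. Sln, Bmp10, Dkk3 and Gja5 were too dim to test. The mean of the 6 per heart was 9.68 to 10.27 with Cre and 8.18 to 8.42 without. Myl7 makes most of that gap, since the mean of the other 5, which include Nppa, was 9.44 to 10.04 with Cre and 9.14 to 9.24 without. Whether the rise of Myl7 and Nppa had a part in the values of the FOG, GATA and COUP-TF genes was not tested. Among the 11 ventricular markers Hey2 alone rose (0.75 ± 0.16, SE, adjusted p = 0.032), with a median of 0.05. That call was lost with quantile normalization or without any single heart other than no_Cre 2.

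None passed in the limma fit among 9 tested smooth muscle and pericyte markers (median 0.04, 1 at an unadjusted p under 0.05), 9 macrophage markers (0.06, 1) and 3 lymphocyte markers (0.07, 0). With no filter on dim probe sets, Myh7, Bcl2, Myl7 and Nppa kept their calls, and every other list gene named here as having risen lost its call.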

How the data were processed

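For each array the authors deposited log2 signals, 1 for every probe set. PLIER, which merges the probes of a set, is named in the submitters' processing notes. Neither its settings nor any normalization is given in the sources used here. The log2 base is inferred from the values. Each array holds 749 to 902 values below 0, so differences of dim probe sets are unsteady. No detection calls were used.

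Control probe sets (64) were removed, and so were the dimmest 40% of the rest by mean signal (18015, below 5.16). The other 27022 were fitted with limma 3.58.1 under R 4.3.3 (linear model with eBayes, no covariates, two-sided, differences as αMHC-Cre minus no Cre) and adjusted by Benjamini-Hochberg over all of them at 0.05. Members below the filter take their values from the same fit of all 45037 probe sets. The procedure was tested on simulated data. Names came from the platform annotation (34945 probe sets with 1 symbol, 932 with several, 9160 with none), and only those with 1 were used. Chromosomes and promoters came from RefSeq tables of GRCm38.p6.

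The members, the 15 lists and the tests were chosen with earlier results of these data known. All members are named. Of each list, up to 4 genes past the threshold with the largest differences are named, or up to 2 as values where none passed. Such values were not given for smooth muscle, macrophage and lymphocyte markers, as decided after their values were seen. Genes that complete a count are named besides, and so is Ccnd2, for a probe set other than its brightest. Alternatives were quantile normalization, median centring, other filters, other variance settings, array weights, 16 or 64 added to the unlogged signal, the mean over a gene's probe sets for lists, the replicate number as a block, and leaving out each heart. With 3 arrays per group, their number limits the precision.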

Additional observations from a re-analysis of the deposited data

How the results depend on the processing

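Zfpm2 1449314_at passed in all 15 alternatives (differences 1.56 to 1.72), Zfpm2 1419012_at in 13 of 14 (-0.95 to -0.45; it was too dim for the 60% filter), and Zfpm1 1451046_at in 13 of 15 (0.63 to 0.82). With no filter, Zfpm2 1419012_at kept its difference of -0.88 but not its call (adjusted p = 0.068), 1 of the members was called, and 275 of all probe sets were, 226 of them higher. The replicate block (numbers from the titles) gave 909 calls and kept all 3 calls of members. Same-numbered hearts correlated at -0.06, 0.21 and -0.19 after subtracting group means, and differently numbered ones at -0.20 to 0.27. The same-numbered values thus gave no sign that the numbers pair the hearts, and any other pairing was not tested. Leaving out 1 heart gave 600 (without aMHC_Cre 2) to 1075 calls. The Zfpm2 contrast within hearts was 2.36 with 16 added to the signal and 2.00 with 64 added, a setting chosen after seeing the data. Differences that turned their direction were all far from the threshold. With array weights this was Nr2f2 1431237_at (-0.0093). Leaving out 1 heart gave ranges of -0.053 to 0.19 for Gata5 1450125_at, -0.10 to 0.11 for Gata6 1425464_at, -0.22 to 0.039 for Gata6 1443081_at and -0.20 to 0.044 for Nr2f1. The ranges were -0.051 to 0.13, -0.18 to 0.043, -0.097 to 0.23 and -0.086 to 0.24 for Nr2f2 1416159_at, 1436475_at, 1416158_at and 1431237_at, and -0.11 to 0.058 for Gata1. The causes were not tested.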

Other observations

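Within the hearts lacking Cre, the third one had the highest signal of its group in 11 of the 14 tested probe sets of the 7 genes, against 47.7% of all tested probe sets. The second one was the lowest in 8 of the 14, against 42.4% of all. Hearts aMHC_Cre 1, 2 and 3 were the highest of their group in 5, 4 and 5 of the 14, against 46.3%, 19.4% and 34.3% of all. They were the lowest in 6, 2 and 6 of the 14, against 24.2%, 43.8% and 32% of all.

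The promoter window of Gata5 held 0 GATA words, 0 AGGTCA words and 2 GC boxes, and the 2 windows of Nr2f1 held 0 GATA words and 0 AGGTCA words, with 1 GC box in the first.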
